A study of Saccharomyces cerevisiae with 18 samples.

Results

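The genes followed here switch the budding yeast cell cycle to its next stage, and their RNA was measured while cells were depleted of a splicing factor. They are the G1 cyclins CLN1, CLN2 and CLN3, the Pho85 cyclin PCL1, the S phase cyclins CLB5 and CLB6, the mitotic cyclins CLB1 and CLB2, the inhibitor SIC1 and the activator CDC20. The members were taken by name from the gene tables, as 10 of the 6596 genes listed. No measured value was part of that rule, but earlier results of these data were known when it was set. All 10 had reads in every library and entered every test.

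The series holds poly(A)-selected, strand-specific RNA libraries, read from both ends over 151 bases, of Saccharomyces cerevisiae. It has 6 groups of 3 libraries from strains that express a spliceosome gene from the GAL1 promoter, which galactose turns on and glucose represses. The Snu114 strain (PGAL1- YKL173w) carries the promoter at SNU114 and the Dib1 strain (PGAL1- YPR082C) at DIB1. Both are labelled as BY4742, Mat alpha, with ura3Δ0, met15Δ0, his3Δ1 and leu2Δ0; the Snu114 strain is lys2Δ0 and the Dib1 strain LYS2. Depleted cells were taken 8 h and 4 h into growth on glucose (YPD), and control cells after 6 h on galactose (YPGal). The promoter over-expresses the gene in galactose, so the control cells carry more of its RNA than a native promoter would give. Depletion, the change of sugar, the end of over-expression and the hours of culture therefore cannot be told apart in a comparison with galactose. Both glucose groups of a strain share the same galactose libraries. At 8 h against 4 h, depletion and longer growth on glucose cannot be told apart.

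The cyclins work by binding a cyclin-dependent kinase, which is Cdc28 for the Cln and Clb proteins and Pho85 for Pcl1. Cln3 starts the commitment to division, called Start, by switching on the transcription factors SBF and MBF, which raise CLN1, CLN2, PCL1, CLB5 and CLB6. Sic1 holds the Clb kinases back until Cln kinases mark it for destruction, Clb5 and Clb6 then start replication, Clb1 and Clb2 drive mitosis, and Cdc20 activates the anaphase-promoting complex (APC), which ends it. In bulk samples such as these, fewer cells in the stage that expresses a gene and less of its RNA per cell cannot be told apart.

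Stretches upstream of 3 members show the letters that SBF and MBF are known to read. They are printed because PCL1 and CLN2 hold the most matches and CLB6 the most of MBF, and because PCL1 had the largest change of the members. The sequences are from the R64 reference, the same assembly as sacCer3, 5′ to 3′ on the strand of the gene, and capitals mark matches on either strand to CACGAAA (the SBF element SCB), its variant CGCGAAA, or ACGCGT (the MBF element MCB). The first lies at chrXIV:87558-87621 on the plus strand, 339 to 276 bases before the PCL1 start codon, the next at chrXVI:67134-67232 on the minus strand, 618 to 520 bases before that of CLN2, and the last at chrVII:706861-706916 on the minus strand, 415 to 360 bases before that of CLB6.
PCL1: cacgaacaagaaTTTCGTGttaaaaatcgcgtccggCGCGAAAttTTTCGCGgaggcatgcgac
CLN2: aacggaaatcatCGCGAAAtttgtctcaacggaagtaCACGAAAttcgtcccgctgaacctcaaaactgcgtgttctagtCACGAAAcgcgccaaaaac
CLB6: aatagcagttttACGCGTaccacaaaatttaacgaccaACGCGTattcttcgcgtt
In the 800 bases before the start codon, PCL1 held 1 SCB and 2 variants and CLN2 held 2 SCB and 1 variant. At least 3 such matches stood in 17 of 6016 promoters of that length (0.283%). CLB6 held 2 MCB, which 45 promoters did (0.748%). CLN1 held 1 MCB and 1 SCB and SIC1 held 1 SCB, and these letters are common, since 7.60% of promoters held an MCB, 10.8% an SCB and 7.18% the variant. CLN2 also held an early cell cycle box (ECB), the element of the factor Mcm1, as 0.648% of promoters did. The other 5 members held none of these letters in this window.

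The libraries held 17065989 to 58615022 reads in genes, and the fewest reads of a member in a library were 134, for CLB6. The targeted genes followed the labels. SNU114 had 1180.4 to 1501 normalised reads (reads divided by the library's size factor) in the Snu114 strain at 8 h, 1130.5 to 1247 at 4 h and 159504 to 186566 in galactose. DIB1 had 246 to 283 in the Dib1 strain at 8 h, 244 to 263 at 4 h and 117804 to 127214 in galactose. The mating type went against the label in the Dib1 strain: MFA1, which encodes a-factor, had 12.8 to 22.7 normalised reads in the Snu114 strain and 2859 to 4862 in the Dib1 strain, and MF(ALPHA)1, which encodes alpha-factor, had 71259 to 106892 in the Snu114 strain and 9.60 to 62.9 in the Dib1 strain. All 4 a-cell markers followed this pattern, and of 4 alpha-cell markers SAG1, the alpha agglutinin, kept the most, with 7852 to 16752 in the Snu114 strain and 1222 to 3046 in the Dib1 strain. Strain and mating type thus cannot be told apart in any difference between strains. Replicate 3 of the Snu114 strain at 8 h and replicate 1 of the Dib1 strain at 4 h stood apart from their groups, with correlations of log2 values of 0.951 to 0.952 and 0.949 to 0.954 with the other 2 libraries. The labels do not say that replicates were separate cultures, and the file headers name the means as technical repeat averages, so p-values may measure technical spread alone.

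Changes are log2 differences of group means of log2(normalised reads + 1), with their standard errors (SE), and p-values are limma's, adjusted by Benjamini-Hochberg over all genes tested and called under 0.05. In the Snu114 strain limma called 0 of the 10 members in each comparison, where it called 8.98% of all 6447 genes tested at 8 h against galactose (3.27% higher and 5.71% lower), 11.5% at 4 h (3.78% higher and 7.68% lower) and 1.91% at 8 h against 4 h (1.24% higher and 0.667% lower). At an unadjusted p under 0.05 there were 3, 3 and 1 members in these comparisons, edgeR called 0, 0 and 0, and DESeq2 called 1, 2 and 0. The authors' deposited adjusted p-values were under 0.05 for 1, 2 and 0 members. They were CLN3 at 8 h, lower (0.048), and CLB5 (0.019) and CLB6 (0.039) at 4 h, higher, the same members that DESeq2 called. The median change of the members there was 0.02 at 8 h, 0.12 at 4 h and -0.05 at 8 h against 4 h, and that of all genes was at most 0.01 from 0 in every comparison within a strain.

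In the Dib1 strain 3 members rose at 8 h against galactose (PCL1, CLB6 and CLB1), where 28.9% of all genes were called (13.7% higher and 15.1% lower). CLB6 and CLB1 also rose at 4 h, where 15.2% of all genes were called (5.17% higher), which is 979 genes, or 1479 with the replicate block, and the other 8 members did not pass. Between 8 h and 4 h PCL1 rose and CLN1, CLB5 and CDC20 fell, where 14.4% of all genes were called (8.62% higher and 5.79% lower). Of the 10 members, 3 were thus called at 8 h and 2 at 4 h against galactose, all of them higher. These shares lie near those of all genes called in either direction and above those of all genes called higher. With 8 h set against 4 h, 4 members were called, a share above that of all genes. The shares of so few members were not tested. The authors' deposited adjusted p-values were under 0.05 for 5, 3 and 4 members in the same order. They added CLN1 (0.028) and CLB5 (0.036) at 8 h, both lower, and CLB2 (0.018) at 4 h, higher. The median change of the members was 0.09 at 8 h, 0.26 at 4 h and -0.29 at 8 h against 4 h.

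**Figure D1:**
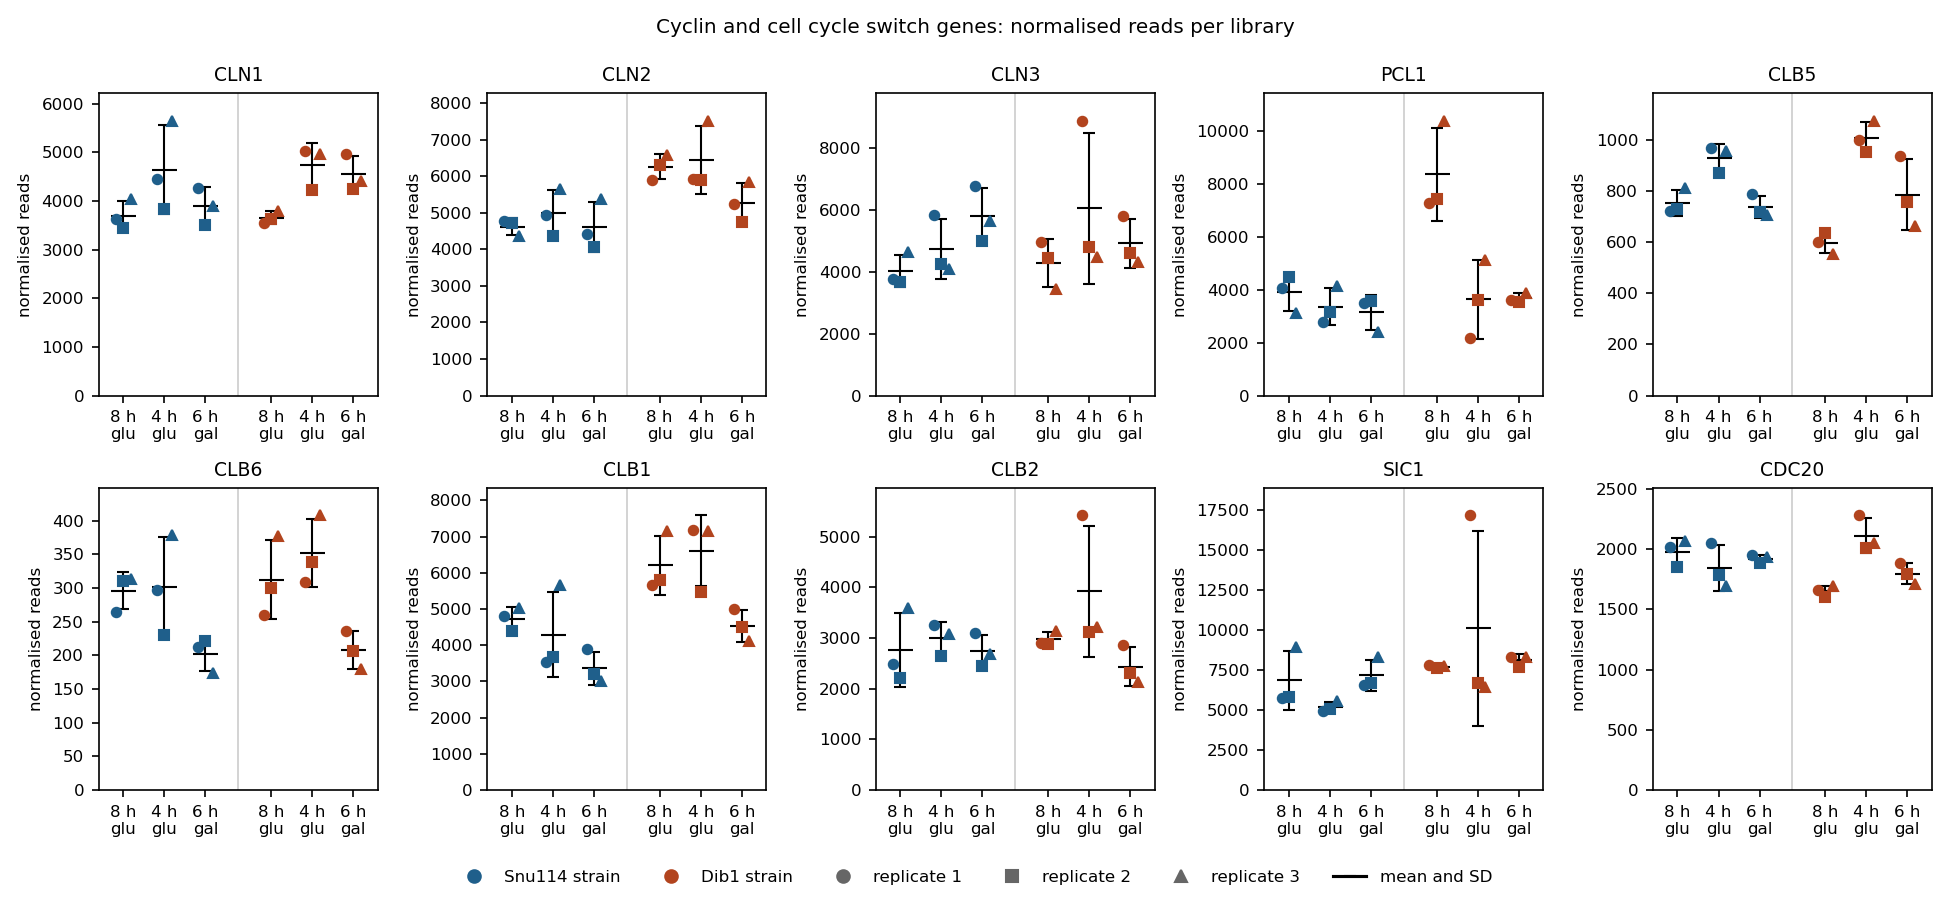
Normalised reads of each member (y axis, from 0) in the 3 groups of the Snu114 strain (left of each panel) and of the Dib1 strain (right), with 1 point per library, bars for the mean and SD, and a marker for the replicate number. In the Dib1 strain PCL1 at 8 h sits between 7261 and 10368, above all other libraries of that strain, and SIC1 at 4 h has 1 library at 17174 while its other 2 are at 6683 and 6468.

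Of the G1 cyclins, only CLN1 gave a call. CLN1 (YMR199W, chrXIII:662644-664284), whose product drives budding and Start, had 3619, 3438 and 4038 normalised reads in Snu114 cells at 8 h, 4451, 3839 and 5645 at 4 h and 4275, 3497 and 3894 in galactose. In Dib1 cells it had 3543, 3634 and 3794 at 8 h, 5037, 4223 and 4972 at 4 h and 4975, 4254 and 4407 in galactose. All 3 Dib1 libraries at 8 h lay below all libraries of the other 2 Dib1 groups, while the Snu114 groups overlapped. At 8 h against 4 h the change was -0.31 ± 0.15 (SE) in Snu114 cells (limma adjusted p = 0.388) and -0.37 ± 0.11 in Dib1 cells, a fold of 0.773 (limma adjusted p = 0.0498). The Dib1 call was lost whichever library was left out, except replicate 2 at 4 h (limma adjusted p 0.060 to 0.169), with edgeR (adjusted p = 0.061) and with the trend of change with gene length removed (limma adjusted p = 0.088). Over the 9 libraries left out in turn, the change was -0.45 to -0.33. Leaving out a library outside the groups compared leaves the change as it is and alters only the shared spread and the adjustment. With 8 h set against galactose, the Dib1 value was -0.31 ± 0.11, with a limma adjusted p of 0.059, or 0.036 with the replicate numbers as a block.

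CLN2 (YPL256C, chrXVI:64977-66614), the close relative of CLN1, had 4779.9, 4729 and 4373 normalised reads in Snu114 cells at 8 h, 4947, 4376 and 5652 at 4 h and 4412, 4075 and 5387 in galactose. Dib1 cells had 5916, 6317 and 6575 at 8 h, 5921, 5907 and 7519.9 at 4 h and 5259, 4758 and 5841 in galactose. Both Dib1 glucose groups lay above galactose, by 0.25 ± 0.13 at 8 h (limma adjusted p = 0.188) and 0.28 ± 0.13 at 4 h (limma adjusted p = 0.165), and the Snu114 groups overlapped, with changes of 0.01 and 0.11. CLN1 and CLN2 are identical at 61.6% of aligned coding positions, with a longest shared run of 17 bases, well under the read length.

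CLN3 (YAL040C, chrI:65778-67520), the upstream activator of Start, had 3774, 3676 and 4632 normalised reads in Snu114 cells at 8 h, 5848, 4247 and 4094 at 4 h and 6788, 5008 and 5628 in galactose. The Dib1 libraries held 4962, 4442 and 3431 at 8 h, 8875, 4796 and 4488 at 4 h and 5808, 4616 and 4323 in galactose. The Snu114 libraries at 8 h lay below those in galactose, with a change of -0.52 ± 0.17 that limma did not call (adjusted p = 0.101). With the replicate block the limma adjusted p was 0.048, and that of DESeq2 was 0.044. The Dib1 groups overlapped in each comparison, with changes of -0.21 ± 0.25 at 8 h and 0.24 ± 0.25 at 4 h, and the highest of the 9 libraries was replicate 1 at 4 h, without which the value at 4 h was -0.07 ± 0.17.

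PCL1 (YNL289W, chrXIV:87897-88736), the cyclin that directs Pho85 to its G1 substrates, had the largest change of the members and the only call of a member that held whichever library was left out. It had 4072, 4472 and 3134 normalised reads in Snu114 cells at 8 h, 2777, 3173 and 4118 at 4 h and 3479.7, 3568 and 2388 in galactose. Its Dib1 values were 7261, 7416 and 10368 at 8 h, 2154, 3625 and 5104 at 4 h and 3595, 3532 and 3886 in galactose. Every Dib1 library at 8 h lay above every other library of that strain, and the Snu114 groups overlapped.

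At 8 h against galactose the change of PCL1 was 0.31 ± 0.21 in Snu114 cells (limma adjusted p = 0.425) and 1.17 ± 0.27 in Dib1 cells, a 2.24-fold rise (limma adjusted p = 0.0098). Leaving out any of the 9 Dib1 libraries gave 1.00 to 1.26, with limma adjusted p-values up to 0.047, and removing the trend with gene length gave 1.27 ± 0.26 (limma adjusted p = 0.0063). The authors' deposited table gives 1.19 for the same comparison with an adjusted p of 0.000177. At 8 h against 4 h the change was 0.22 ± 0.21 in Snu114 cells (limma adjusted p = 0.706) and 1.27 ± 0.27 in Dib1 cells, 2.41-fold (limma adjusted p = 0.015). That call was lost without replicate 1 (limma adjusted p = 0.056) or replicate 3 (0.057) of the Dib1 strain at 8 h. At 4 h against galactose PCL1 did not pass in either strain, with 0.10 ± 0.21 in Snu114 cells and -0.10 ± 0.27 in Dib1 cells. The difference between the strains' changes, Snu114 minus Dib1, was -0.85 ± 0.37 at 8 h (limma adjusted p = 0.206) and -1.05 ± 0.37 at 8 h against 4 h (limma adjusted p = 0.194), so it did not pass over all genes.

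**Figure D2:**
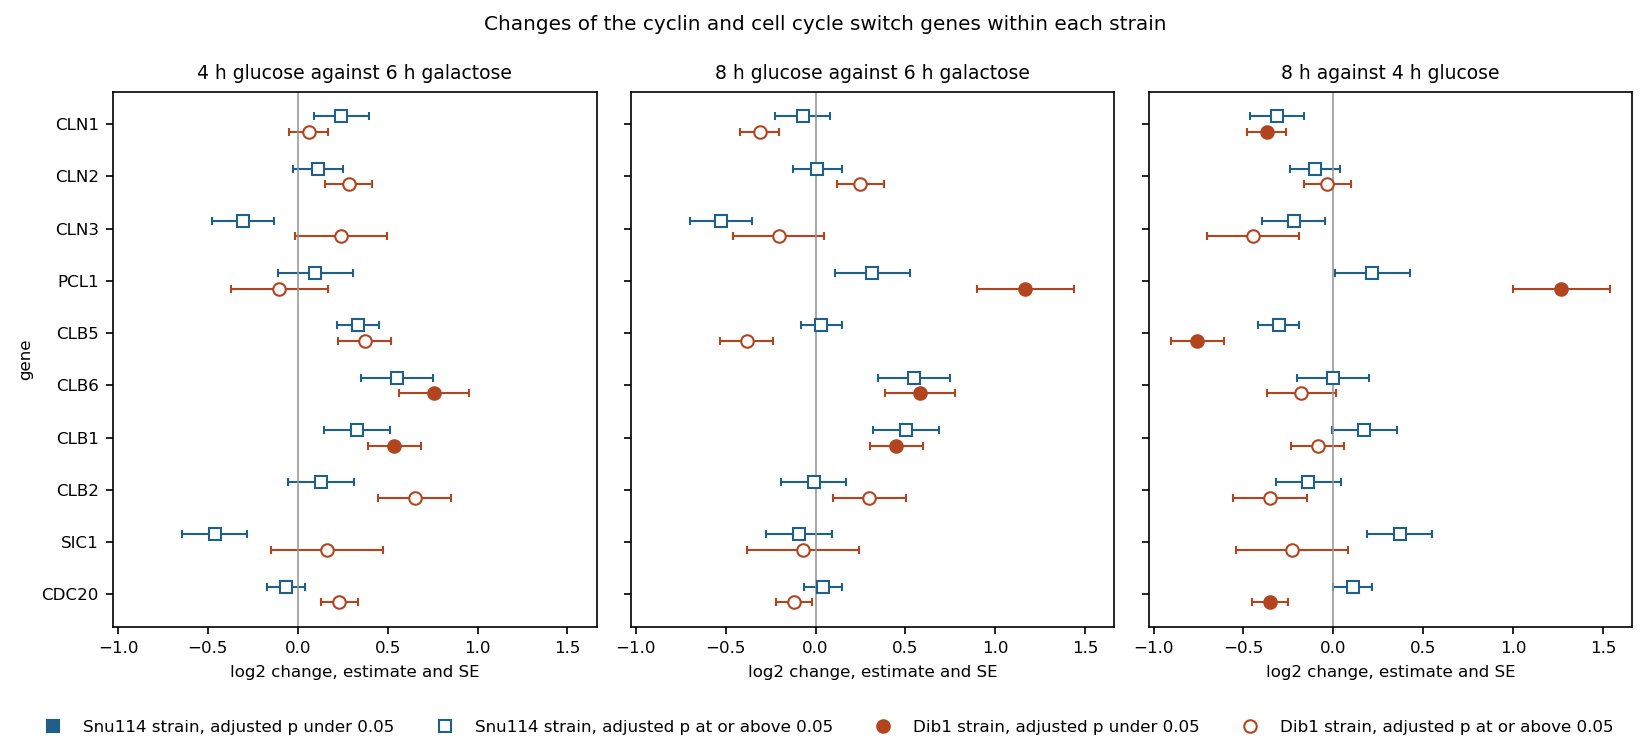
Log2 change of each member (x axis, points with SE bars) in the 3 comparisons within the Snu114 strain (squares, upper) and the Dib1 strain (circles, lower), with filled symbols where limma's adjusted p was under 0.05. All 9 filled symbols belong to the Dib1 strain, and the PCL1 changes of 1.17 and 1.27 lie farthest from 0.

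None of the members holds an intron that the files list, while PHO85, the kinase that Pcl1 binds, is 1 of the 284 intron hosts. Its intron, at chrXVI:492919-493020 on the minus strand of R64, is printed because its reads rose in both strains, with capitals for the 5′ splice site, the branch point and the 3′ splice site.
PHO85 intron: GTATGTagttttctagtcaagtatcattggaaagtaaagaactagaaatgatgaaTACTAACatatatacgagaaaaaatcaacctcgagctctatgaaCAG
For every 100 reads in the PHO85 gene, the intron had 6.14, 6.23 and 4.53 reads in Snu114 cells at 8 h, 0.691, 0.831 and 0.525 at 4 h and 1.38, 1.23 and 0.911 in galactose. In Dib1 cells it had 15.4, 14.1 and 13.4 at 8 h, 4.33, 5.47 and 4.28 at 4 h and 1.07, 0.946 and 1.04 in galactose. The Snu114 strain at 4 h lay below its galactose libraries, and every other glucose group lay above.

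On the log2 scale, the PHO85 intron share rose at 8 h by 2.26 ± 0.29 in Snu114 cells (limma adjusted p = 5.5e-05) and by 3.8 ± 0.21 in Dib1 cells (limma adjusted p = 5.3e-08). At 4 h it was -0.77 ± 0.29 in Snu114 cells (limma adjusted p = 0.091) and 2.19 ± 0.21 in Dib1 cells (limma adjusted p = 5.1e-06). The strains' changes differed by -1.54 at 8 h and -2.96 at 4 h (Snu114 minus Dib1, limma adjusted p = 0.00147 and 6.0e-07). Reads of the PHO85 gene as a whole did not pass at either time, with -0.08 ± 0.17 and -0.06 ± 0.17 in Snu114 cells and -0.12 ± 0.15 and -0.03 ± 0.15 in Dib1 cells (limma adjusted p 0.625 to 0.910). Most introns tested rose at 8 h, with 81.9% in Snu114 cells and 88.9% in Dib1 cells. At 4 h 0.385% rose and 16.2% fell in Snu114 cells, while 83.9% rose in Dib1 cells. Relative to 4 h, 83.5% rose at 8 h in Snu114 cells, and 68.2% rose and 0.383% fell in Dib1 cells. The strains' changes differed for most introns, with lower changes in Snu114 cells for 57.3% at 8 h and 81.9% at 4 h, and higher ones for 55.8% at 8 h against 4 h. Of 13 introns in cell cycle genes, 11 rose in Snu114 cells and 12 in Dib1 cells at 8 h, with medians of 1.91 and 2.33 beside 1.56 and 2.52 for all introns. At 4 h limma called 0 of the 13 in Snu114 cells, with 2 at an unadjusted p under 0.05, and 12 in Dib1 cells, and at 8 h against 4 h it called 11 and 7. CIN2, which encodes a tubulin folding factor, was the host that passed in no comparison.

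**Figure D3:**
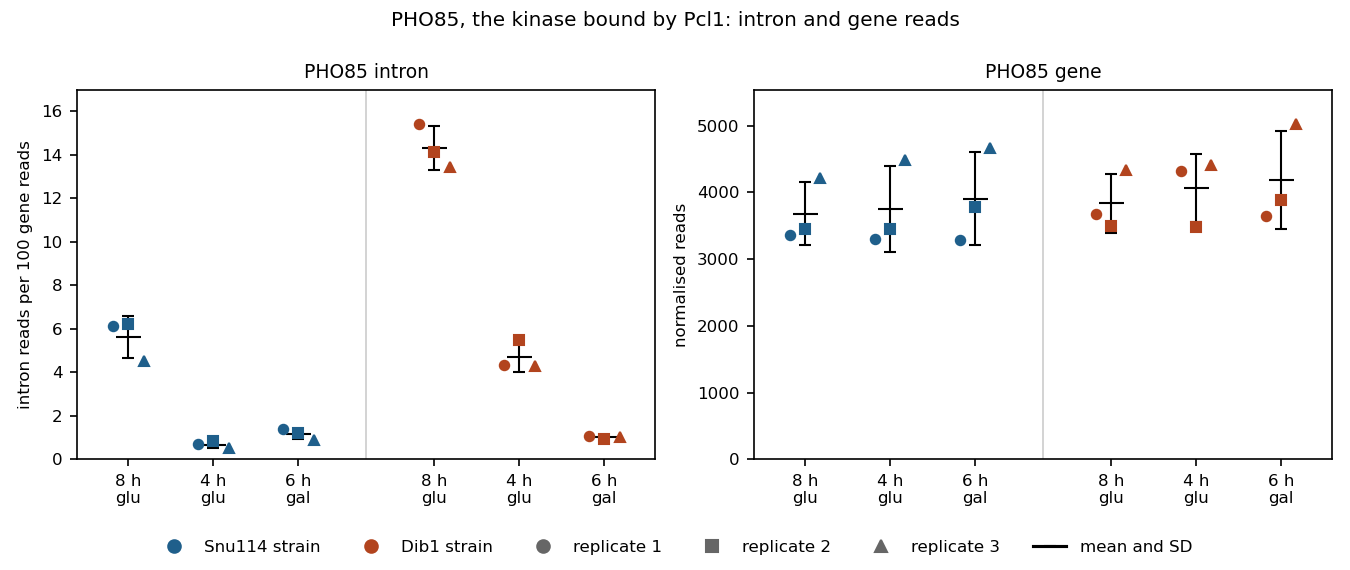
PHO85 intron reads per 100 gene reads (left panel, y axis) and normalised reads of the PHO85 gene (right panel, y axis) in the 3 groups of the Snu114 strain and then of the Dib1 strain, with 1 point per library and bars for mean and SD. The intron share reaches 4.53 to 6.23 in Snu114 cells and 13.4 to 15.4 in Dib1 cells at 8 h, while the gene reads of all groups overlap.

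Of the S phase cyclins, CLB6 rose against galactose in Dib1 cells at both times, while CLB5 passed only at 8 h against 4 h, as a fall. CLB6 (YGR109C, chrVII:705359-706501) had 265, 309.7 and 314 normalised reads in Snu114 cells at 8 h, 297, 231 and 379 at 4 h and 212, 222 and 174 in galactose. Dib1 cells had 260.1, 300.4 and 377 at 8 h, 309, 338 and 408 at 4 h and 236, 207 and 179 in galactose. All glucose libraries of a strain lay above all its galactose libraries. The change at 8 h was 0.55 ± 0.20 in Snu114 cells (limma adjusted p = 0.130) and 0.58 ± 0.19 in Dib1 cells, 1.5-fold (limma adjusted p = 0.048). At 4 h it was 0.55 ± 0.20 in Snu114 cells (limma adjusted p = 0.109) and 0.76 ± 0.19 in Dib1 cells, 1.69-fold (limma adjusted p = 0.029). The Dib1 call at 8 h was lost without replicate 2 at 4 h, any replicate in galactose or any at 8 h (limma adjusted p 0.054 to 0.155). The call at 4 h was lost without replicate 3 at 4 h, replicate 2 or 3 in galactose or replicate 2 at 8 h (limma adjusted p 0.054 to 0.102). Over the 9 libraries left out in turn, the Dib1 change was 0.44 to 0.71 at 8 h and 0.65 to 0.86 at 4 h. The strains' changes of CLB6 differed by -0.03 ± 0.28 at 8 h and -0.21 ± 0.28 at 4 h, Snu114 minus Dib1.

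CLB5 (YPR120C, chrXVI:773875-775182), the main S phase cyclin, had 723, 729 and 814 normalised reads in Snu114 cells at 8 h, 968, 871 and 956 at 4 h and 789.6, 717 and 708 in galactose. The Dib1 libraries held 602, 635 and 556 at 8 h, 999.8, 955 and 1076 at 4 h and 937, 758 and 665 in galactose. In both strains every library at 4 h lay above every other, and in Dib1 cells the libraries at 8 h lay below those in galactose. With 8 h set against 4 h, the change was -0.30 ± 0.11 in Snu114 cells (limma adjusted p = 0.255) and -0.76 ± 0.15 in Dib1 cells, a fold of 0.592 (limma adjusted p = 0.0098). The Dib1 call was lost without replicate 1 at 8 h (limma adjusted p = 0.051), and the change was -0.71 to -0.80 over the 9 libraries left out in turn. Against galactose the values of CLB5 were 0.03 ± 0.11 at 8 h and 0.34 ± 0.11 at 4 h in Snu114 cells and -0.38 ± 0.15 and 0.37 ± 0.15 in Dib1 cells, and limma called none of these (adjusted p 0.081 to 0.910). The Snu114 value at 4 h passed with the replicate block (limma adjusted p = 0.045) and with DESeq2 (adjusted p = 0.018). The Dib1 value at 8 h passed without replicate 3 in galactose (limma adjusted p = 0.042) and with DESeq2 (adjusted p = 0.036).

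Of the mitotic cyclins, CLB1 rose in Dib1 cells at both times. CLB1 (YGR108W, chrVII:703636-705051) had 4812, 4381 and 5013 normalised reads in Snu114 cells at 8 h, 3546, 3674 and 5653 at 4 h and 3881, 3194 and 3001 in galactose. Its Dib1 values were 5667, 5804 and 7151 at 8 h, 7180.2, 5469.9 and 7156 at 4 h and 5004, 4489 and 4110.0 in galactose. Both Dib1 glucose groups and the Snu114 group at 8 h lay above their galactose libraries. The change at 8 h was 0.50 ± 0.18 in Snu114 cells (limma adjusted p = 0.130) and 0.45 ± 0.15 in Dib1 cells, 1.37-fold (limma adjusted p = 0.045). At 4 h it was 0.33 ± 0.18 in Snu114 cells (limma adjusted p = 0.289) and 0.54 ± 0.15 in Dib1 cells, 1.45-fold (limma adjusted p = 0.038). The Dib1 call at 8 h was lost whichever library was left out, except replicates 1 and 2 at 4 h (limma adjusted p 0.050 to 0.149). The call at 4 h was lost whichever library was left out, except replicate 2 at 4 h and replicate 3 at 8 h (limma adjusted p 0.062 to 0.129). Over the 9 libraries left out in turn, the Dib1 change was 0.34 to 0.52 at 8 h and 0.47 to 0.67 at 4 h. The strains' changes of CLB1 differed by 0.05 ± 0.24 at 8 h and -0.21 ± 0.24 at 4 h, Snu114 minus Dib1 (limma adjusted p = 0.949 and 0.761).

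CLB2 (YPR119W, chrXVI:771653-773128), the main mitotic cyclin, had 2493, 2217 and 3593 normalised reads in Snu114 cells at 8 h, 3259.6, 2645 and 3075 at 4 h and 3096, 2445 and 2678 in galactose. In Dib1 cells it had 2901, 2883 and 3146 at 8 h, 5421, 3120.3 and 3224 at 4 h and 2872, 2312 and 2125 in galactose. Both Dib1 glucose groups lay above galactose, and the Snu114 groups overlapped. At 4 h the Snu114 change was 0.13 ± 0.18, and the Dib1 change was 0.65 ± 0.21, with a limma adjusted p of 0.061, or 0.030 with the replicate block. The highest Dib1 library was replicate 1 at 4 h, and without it the change was 0.39 ± 0.13 (limma adjusted p = 0.072). At 8 h the changes were -0.01 ± 0.18 in Snu114 cells and 0.30 ± 0.21 in Dib1 cells (limma adjusted p = 0.99 and 0.321). CLB1 and CLB2 are identical at 62.3% of aligned positions, and CLB5 and CLB6 at 56.1%, with longest shared runs of 17 and 15 bases. CLB1 ends 307 bases from the end of CLB6, and CLB2 746 bases from that of CLB5, on opposite strands.

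SIC1 (YLR079W, chrXII:286820-287674), the inhibitor of the Clb kinases, had 5769, 5816 and 8973 normalised reads in Snu114 cells at 8 h, 4948, 5051 and 5576 at 4 h and 6593, 6669 and 8304 in galactose. Dib1 cells had 7832, 7602 and 7730.2 at 8 h, 17174, 6683 and 6468 at 4 h and 8326, 7665 and 8319 in galactose. The highest library was replicate 3 at 8 h in Snu114 cells and replicate 1 at 4 h in Dib1 cells, which are the 2 libraries that stood apart. At 4 h the change was -0.46 ± 0.18 in Snu114 cells, whose libraries lay below galactose (limma adjusted p = 0.136), and 0.16 ± 0.31 in Dib1 cells (limma adjusted p = 0.758). Without replicate 1 at 4 h the Dib1 value was -0.30 ± 0.08 (limma adjusted p = 0.038), so the sign of the Dib1 value at 4 h rests on that library. The Snu114 value at 4 h had a limma adjusted p of 0.025 without replicate 3 at 8 h and of 0.025 with the replicate block. It was 0.016 with replicate 3 against replicates 1 and 2 as a term, and 0.014 without replicate 3 of every group. The authors' deposited adjusted p for this value was 0.090. At 8 h the changes were -0.09 ± 0.18 in Snu114 cells and -0.07 ± 0.31 in Dib1 cells.

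CDC20 (YGL116W, chrVII:289809-291641), the APC activator, had 2017, 1852 and 2066 normalised reads in Snu114 cells at 8 h, 2052, 1781 and 1689.8 at 4 h and 1948, 1884 and 1931 in galactose. The Dib1 libraries held 1659, 1601 and 1692 at 8 h, 2278, 2005 and 2049 at 4 h and 1888, 1790.5 and 1709.6 in galactose. The 3 Dib1 groups did not overlap, with 4 h highest and 8 h lowest, and the Snu114 groups overlapped. At 8 h against 4 h the change was 0.11 ± 0.11 in Snu114 cells (limma adjusted p = 0.722) and -0.35 ± 0.10 in Dib1 cells, a fold of 0.783 (limma adjusted p = 0.043). The Dib1 call was lost whichever library was left out, except replicates 1 and 2 at 4 h (limma adjusted p 0.051 to 0.161), and with the length trend removed (0.062). Over the 9 libraries left out in turn, the Dib1 change was -0.39 to -0.30. The strains' changes differed by 0.46 ± 0.13, Snu114 minus Dib1 (limma adjusted p = 0.103). For all 10 members the strains' changes passed in no comparison by limma, with 2 at 8 h, 1 at 4 h and 3 at 8 h against 4 h at an unadjusted p under 0.05, where 6.31% (3.18% higher and 3.13% lower), 0.499% and 0.623% of all 6418 genes tested between strains were called. There edgeR called 0 members in each and DESeq2 called 0, 0 and 1.

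Levels of different members can be set side by side only per length, as mean normalised reads per kb of coding sequence. SIC1 was highest in 5 of the 6 groups, at 8015 in Snu114 cells at 8 h, 6072 at 4 h and 8408 in galactose, and 11823 in Dib1 cells at 4 h and 9477 in galactose. In Dib1 cells at 8 h PCL1 stood at 9938 ± 2084 (SD, n = 3) and SIC1 at 9031 ± 135, and their libraries overlapped. The order of the lowest 3 was the same in all 6 groups and their libraries did not overlap: CDC20 at 900.4 to 1152, CLB5 at 457 to 772 and CLB6 at 177 to 308. CLB2 lay next above CDC20 in every group. Among the genes between, the order was not resolved at 4 h, where PCL1, CLN2, CLB1, CLN1 and CLN3 each overlapped in both strains with those of these 5 that stood next to them. In galactose PCL1 was the next below SIC1 in both strains, and only in Dib1 cells did its libraries lie apart from those of the gene below it, CLN2.

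Over the 18 libraries, with the mean of each strain removed, the members' log2 values were most alike for CLB6 and CLB1 (Pearson's r = 0.87) and for CLN1 and CLB5 (0.78), and most opposed for PCL1 and CLN3 (-0.72) and PCL1 and CDC20 (-0.68). Among 5502 genes, the 3 most like PCL1 were YLR112W (0.933), ERV15 (0.925) and PAR32 (0.918), and those most like CLB5 were ERG6 (0.945), DUG2 (0.900) and HIS1 (0.891). CLN1 was most like TOS2 (0.909), GIN4 and PDP3 (both 0.895). CLB6 was most like HCM1 (0.913), RAD53 (0.880) and CLB1 (0.866), and CLB1 like RIB2 (0.906), HST3 (0.896) and CLB6 (0.866). CDC20 was most like VAM3 (0.844), NOP9 (0.840) and PUS4 (0.833). These are descriptions: the libraries share their strain, medium and time.

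Around the members, 121 further cell cycle genes in 10 lists were tested in the same fits. In Snu114 cells 8 were called at 8 h against galactose (6.61%), 12 at 4 h (9.92%) and 3 at 8 h against 4 h (2.48%). In Dib1 cells 34 were called at 8 h (28.1%), 23 at 4 h (19%) and 24 at 8 h against 4 h (19.8%). The shares lie near those of all genes at 8 h and at 4 h in Snu114 cells and at 8 h in Dib1 cells. The counts by list below stand beside the shares of all genes called higher and lower. In Snu114 cells these were 3.27% and 5.71% at 8 h, 3.78% and 7.68% at 4 h, and 1.24% and 0.667% at 8 h against 4 h. In Dib1 cells they were 13.7% and 15.1%, 5.17% and 10%, and 8.62% and 5.79%. Whichever library was left out, 3 of 8, 4 of 12 and 0 of 3 kept their call in Snu114 cells and 25 of 34, 6 of 23 and 7 of 24 in Dib1 cells. Genes named from here on kept their call whichever library was left out, unless the lost fits are given.

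FAR1, the Cdc28 inhibitor that arrests cells exposed to pheromone, and PCL10, a Pho85 cyclin for glycogen control, fell at both times in both strains. FAR1 had 4370.4, 4050.4 and 5661 normalised reads in Snu114 cells at 8 h, 4165, 4636 and 4587 at 4 h and 21743, 18573 and 16145 in galactose. Its Dib1 values were 2782, 2889 and 3662 at 8 h, 4592, 4997 and 5427 at 4 h and 21037, 20656 and 17345 in galactose. The log2 changes of FAR1 were -2.01 and -2.07 in Snu114 cells and -2.67 and -1.97 in Dib1 cells, at 8 h and at 4 h (limma adjusted p up to 6.6e-05). PCL10 changed by -1.59 and -1.59 in Snu114 cells and by -1.47 and -1.31 in Dib1 cells (limma adjusted p up to 0.00030).

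PCL5, the Pho85 cyclin that marks the factor Gcn4 for destruction, moved in both directions. It had 4360.1, 5232 and 4418 normalised reads in Snu114 cells at 8 h, 3015, 3439.9 and 2481 at 4 h and 6397, 6400.2 and 4539 in galactose. In Dib1 cells it had 9013, 8455 and 9102 at 8 h, 3173, 3146 and 2436 at 4 h and 5512, 5679 and 4305 in galactose. It fell at 4 h by 0.95 in Snu114 cells and by 0.82 in Dib1 cells, and at 8 h its change was -0.29 in Snu114 cells (limma adjusted p = 0.356) and a rise of 0.79 in Dib1 cells (limma adjusted p = 0.0028). The strains' changes at 8 h differed by -1.08, Snu114 minus Dib1 (limma adjusted p = 0.012, but 0.25 without replicate 1 and 0.27 without replicate 2 of every group). Over the whole list of 17 other cyclins and kinase partners, 3 fell in Snu114 cells at each time, and 2 rose and 3 fell at 8 h and 1 rose and 3 fell at 4 h in Dib1 cells. The remaining called genes of the list were PCL7, PCL2 and CKS1. PCL7 fell at 8 h by 0.60 in Snu114 cells (lost in 8 of 9 fits without 1 library) and by 1.28 in Dib1 cells (lost in 2, without replicate 1 or 2 at 8 h). PCL2 rose by 0.72 in Dib1 cells at 4 h (lost without replicate 2 or 3 in galactose), and CKS1 by 0.55 at 8 h (lost in 6).

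**Figure D4:**
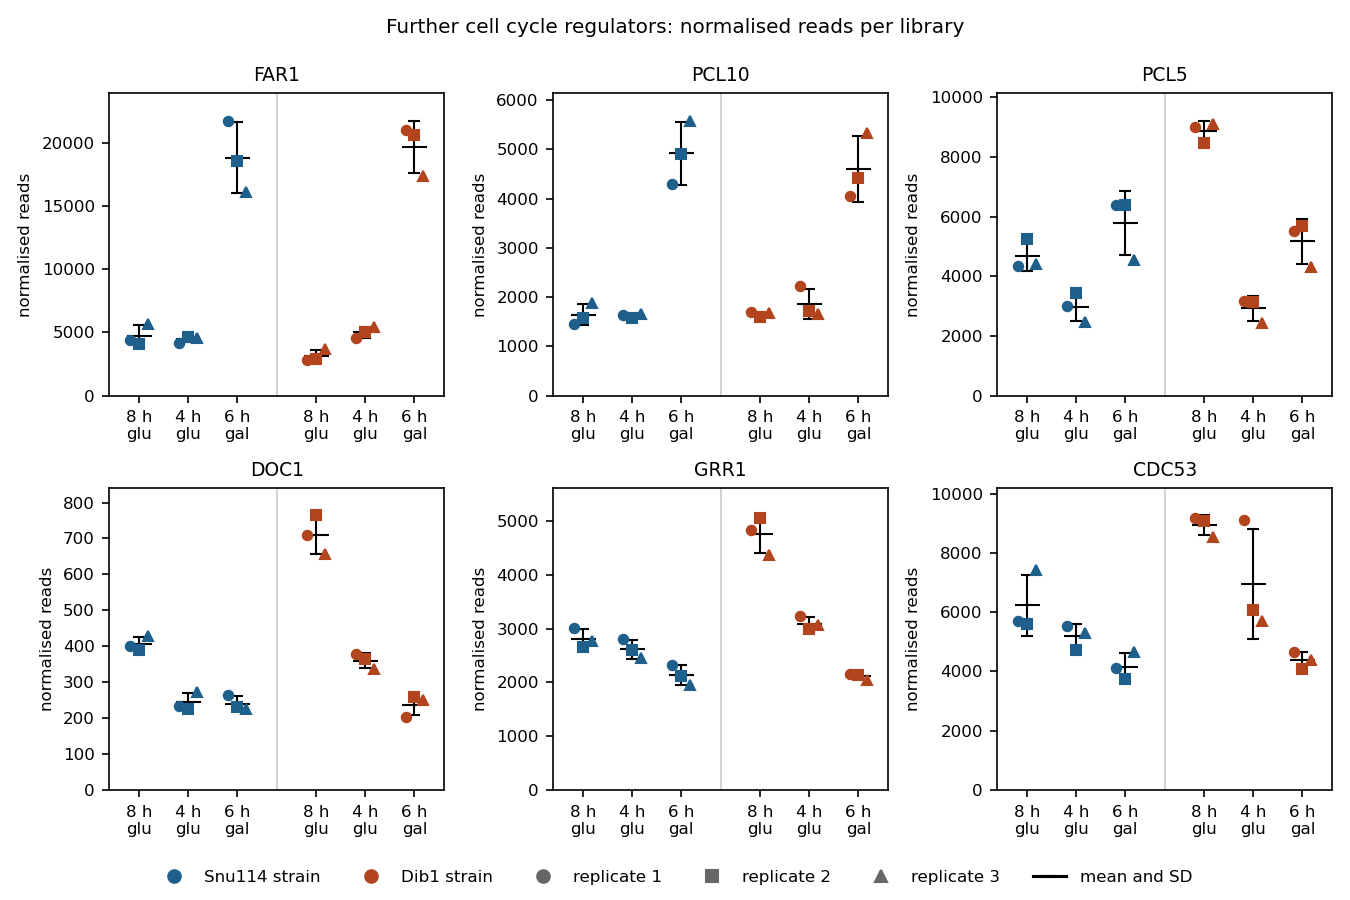
Normalised reads (y axis, from 0) of FAR1, PCL10, PCL5, DOC1, GRR1 and CDC53 in the 3 groups of the Snu114 strain (left of each panel) and of the Dib1 strain (right), with 1 point per library and bars for mean and SD. FAR1 and PCL10 are low in all glucose libraries of both strains, while PCL5, DOC1 and GRR1 are higher at 8 h than in the other groups of the Dib1 strain.

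Of 20 targets of SBF and MBF at the G1 to S step, other than members, 1 fell in Snu114 cells at 8 h, and 5 rose and 1 fell at 4 h, with medians of 0.08 and 0.31. In Dib1 cells 3 rose and 1 fell at 8 h and 7 rose at 4 h, with medians of 0.21 and 0.25. Of all genes, 3.78% in Snu114 cells and 5.17% in Dib1 cells were called higher at 4 h, and 13.7% in Dib1 cells at 8 h. SPT21, which activates histone genes, rose at 4 h by 0.85 in Snu114 cells (lost in 7 of 9 fits) and by 0.87 in Dib1 cells (lost without replicate 3 at 4 h or replicate 2 or 3 in galactose). MCD1, a cohesin subunit, rose at 4 h by 0.69 in Snu114 cells (lost in 8), and CDC45, which starts replication forks, by 0.72 in Dib1 cells (lost in 7). MNN1, a mannosyltransferase, rose in Dib1 cells by 0.84 at 8 h and 0.63 at 4 h, and CRH1, a cell wall enzyme, by 0.79 at 8 h. TOS4 fell by 0.63 in Dib1 cells at 8 h (lost in 4), and GIC2, a Cdc42 effector, by 0.56 at each time in Snu114 cells (lost in 4 at each). Among the 6 regulators of SBF and MBF, WHI5, the repressor that Cln3 kinase removes, rose by 0.91 in Dib1 cells at 8 h, and NRM1 and SWI4 fell by 1.20 and 0.65 at 8 h against 4 h (lost in 7 and 6).

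Of 18 genes of the G2 to M cluster that contains CLB2, limma called none in Snu114 cells, with 2 at 8 h and 0 at 4 h at an unadjusted p under 0.05, while 4 rose and 1 fell in Dib1 cells at 8 h and 3 rose at 4 h. The bud site genes BUD4 and BUD3 rose by 0.87 and 0.70 in Dib1 cells at 8 h, but with the trend of change with gene length removed these values were 0.29 (limma adjusted p = 0.040) and 0.01 (0.959). FKH2, a transcription factor of this cluster, fell by 0.67 in Dib1 cells at 8 h, and HST3, a deacetylase, rose by 0.42 at 4 h (lost in 5). Of 13 genes raised between mitosis and G1, 3 fell in Snu114 cells at 4 h, while in Dib1 cells 3 rose and 2 fell at 8 h and 2 fell at 4 h. PIR1 and EGT2, of the cell wall and cell separation, rose by 1.16 and 0.79 at 8 h in Dib1 cells, and EGT2 was 0.47 with the length trend removed. DSE1, a daughter-specific gene, fell in Dib1 cells by 0.77 at 8 h and by 0.65 at 4 h (the second call lost without replicate 3 at 4 h or replicate 1 or 2 in galactose). RME1, a repressor of meiosis, fell by 0.86 in Snu114 cells at 4 h and by 0.72 at 8 h and 0.47 at 4 h in Dib1 cells, and DSE4 fell by 0.47 in Snu114 cells at 4 h (lost in 8).

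Among genes of the ubiquitin ligases that act on the members' proteins, DOC1 rose in both strains at 8 h. DOC1, an APC subunit, had 400.3, 389 and 428 normalised reads in Snu114 cells at 8 h, 235, 227 and 273 at 4 h and 265, 231 and 226 in galactose. Dib1 cells had 709, 764 and 657 at 8 h, 379.7, 364 and 338 at 4 h and 203, 259 and 250.3 in galactose. DOC1 rose at 4 h in Dib1 cells by 0.60 (lost without replicate 1 or 2 in galactose or replicate 1 at 8 h, highest limma adjusted p = 0.085). It rose at 8 h by 0.75 in Snu114 cells (limma adjusted p = 0.010) and by 1.58 in Dib1 cells (limma adjusted p = 7.8e-05), and the changes differed by -0.83 (limma adjusted p = 0.016, but 0.32 and 0.40 without replicate 1 and without replicate 2 of every group). Over the 19 genes of the APC and mitotic exit, 2 rose in Snu114 cells at 8 h, beside 3.27% of all genes called higher. At 4 h limma called 0 there, with 1 at an unadjusted p under 0.05. In Dib1 cells 5 rose and 1 fell at 8 h, beside 13.7% of all genes called higher and 15.1% lower. At 4 h 3 rose, beside 5.17% of all genes called higher. APC1, the longest gene of the list at 5247 bases, rose by 0.49 in Snu114 cells (lost without replicate 2 or 3 in galactose or replicate 1 at 8 h) and by 0.97 in Dib1 cells at 8 h, and these were 0.16 and 0.23 with the length trend removed (limma adjusted p = 0.410 and 0.197). APC5 fell by 0.40 in Dib1 cells at 8 h (lost in 6), and CDC23 rose by 0.61 at 4 h (lost in 7).

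Of the 6 genes of the SCF ligase, which marks Sic1 and the Cln proteins, 2 rose in Snu114 cells at 8 h and 3 at 8 h and 2 at 4 h in Dib1 cells. GRR1, its F-box protein for Cln1 and Cln2, rose at 8 h by 0.40 in Snu114 cells (lost in 8) and by 1.17 in Dib1 cells, and by 0.55 at 4 h in Dib1 cells. CDC53, its cullin, rose at 8 h by 0.57 in Snu114 cells (lost in 7) and by 1.03 in Dib1 cells, and by 0.64 at 4 h in Dib1 cells (lost in 6). With the length trend removed GRR1 and CDC53 rose by 0.77 and 0.88 in Dib1 cells at 8 h, and GRR1 was 0.23 in Snu114 cells at 8 h (limma adjusted p = 0.216) and 0.35 in Dib1 cells at 4 h. Of 6 spindle checkpoint genes, MAD2 and MAD1 rose by 0.63 and 0.62 in Dib1 cells at 8 h (MAD1 lost in 6), and MAD1 by 0.68 at 4 h (lost in 6). With the length trend removed MAD1 was 0.52 at 8 h and 0.56 at 4 h (limma adjusted p = 0.053 and 0.061). Of 8 replication licensing genes, the helicase subunits MCM7 and MCM3 fell by 0.63 and 0.43 in Dib1 cells at 8 h, and MCM6 rose by 0.44 at 4 h (lost in 7). Without the length trend MCM3 was -0.70 and MCM6 0.26 (limma adjusted p = 0.0014 and 0.109). Of 8 core histone genes, HTA1 fell by 0.49 in Dib1 cells at 8 h (lost in 7), and was -0.39 with the length trend removed (limma adjusted p = 0.113).

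With 8 h set against 4 h, limma called 24 of the 121 genes in Dib1 cells and 3 in Snu114 cells. PCL5 rose at 8 h by 1.61 in Dib1 cells, and FAR1 fell by 0.69 (lost without replicate 1 or 2 at 8 h). Of the 20 targets of SBF and MBF, 1 rose and 3 fell in Dib1 cells: CRH1 rose by 0.76, and TOS4 and GIC1, a Cdc42 effector, fell by 0.60 and 0.54 (lost in 8 and 4 fits). Of the G2 to M genes 3 rose and 3 fell in Dib1 cells. Among them FKH2 fell by 0.87 and SPO12, a regulator of mitotic exit, by 0.51 (lost in 8), while BUD3 and BUD4 rose by 0.58 and 0.46 (BUD4 lost in 6). With the length trend removed, BUD3 and BUD4 were 0.16 and 0.12 (limma adjusted p = 0.253 and 0.411), and TOS4, SPO12 and NRM1 were -0.53, -0.51 and -1.15 (limma adjusted p = 0.063, 0.054 and 0.052).

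Of the M to G1 genes, PIR1 rose by 0.99 in Dib1 cells (lost without replicate 1 or 2 at 8 h) and EGT2 by 0.58 (lost in 5), the only called genes of that list there. In Snu114 cells DSE4, which encodes a glucanase of daughter cells, rose by 0.91 at 8 h against 4 h (limma adjusted p = 0.013, lost without replicate 1 or 2 at 4 h or replicate 2 at 8 h) and RME1 by 0.58 (lost in 7). MCM7 fell by 0.64 in Dib1 cells (lost without replicate 3 at 4 h or replicate 1 or 2 at 8 h). Of the SCF genes, GRR1 rose by 0.62 and HRT1, its RING subunit, by 0.41 in Dib1 cells (HRT1 lost in 6). DOC1 rose by 0.73 in Snu114 cells (lost in 8) and by 0.98 in Dib1 cells. Of the other genes of the APC and mitotic exit, APC1 rose by 0.83 in Dib1 cells, while APC5 fell by 0.55 (lost without any replicate at 8 h) and PDS1, the securin, by 0.44 (lost in 4). With the length trend removed, APC1 was 0.36, HRT1 0.33 and PDS1 -0.36 (limma adjusted p = 0.083, 0.054 and 0.063).

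**Figure D5:**
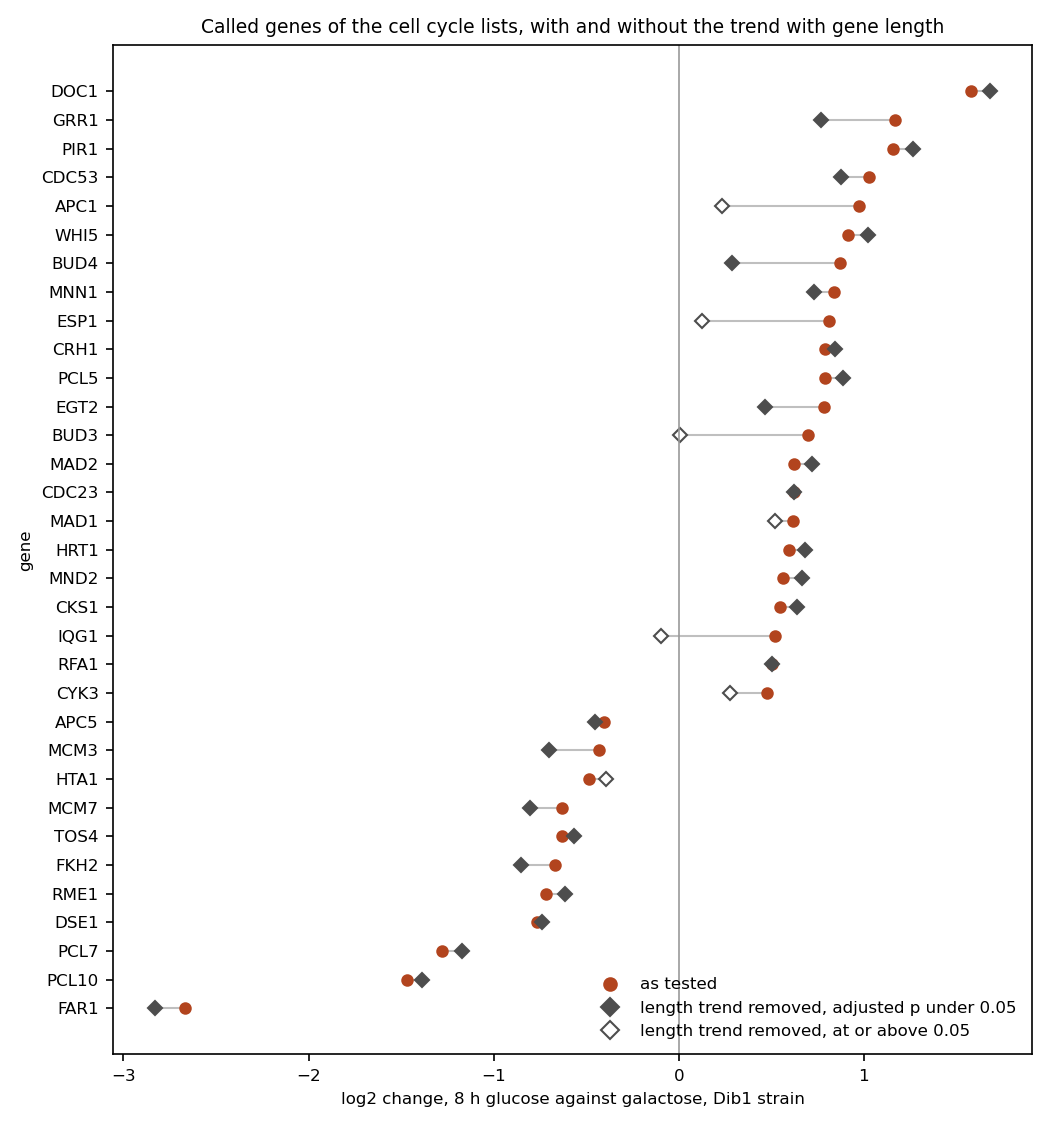
Log2 change at 8 h against galactose in the Dib1 strain (x axis) of 33 of the 34 called genes of the 10 lists (y axis), as tested (circles) and with the trend of change with gene length removed (diamonds, filled where limma's adjusted p was under 0.05). The call was lost for 7 genes drawn, among them the long genes APC1, ESP1, BUD3 and IQG1, and 26 kept it.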

How the data were processed

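In all, 3 libraries were made for each of 6 groups, with groups and replicate numbers taken from the labels. Per the submitters' processing notes the tools were Trimmomatic, STAR, HTSeq and DESeq2 with the sacCer3 build, and their versions and the strand setting of the counting are not given in the sources used here. The deposited gene and intron tables hold normalised reads (signal: reads divided by a size factor, set for each strain apart), log2 fold changes and p-values by the authors. Because of the separate scaling, levels of the strains are set side by side with no test. With the size factors undone, 100% of gene values were whole reads within 0.001 of a read. No column of per-sample values was left unused (0 columns).

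Normalised reads + 1 were taken to log2 and fitted with limma 3.58.1 (R 4.3.3) over the 9 libraries of a strain, with a trended prior variance and Benjamini-Hochberg adjustment over all genes tested; differences between the strains' changes used all 18. Intron ratios used a pseudocount of 0.5 and hosts with a mean of at least 20 reads. The scripts were tested on simulated data. On the whole reads edgeR 4.0.16 called 569, 720 and 122 genes in the Snu114 strain (8 h, 4 h and 8 h against 4 h) and 1877, 941 and 940 in the Dib1 strain. DESeq2 1.42.0, other pseudocounts (0.5 and 5), a filter at a mean of 10, TMM scaling, a replicate block, removal of the trend with gene length and leaving out libraries were the other alternatives. Deviations from group means of libraries with the same number correlated at 0.12 to 0.73 in the Dib1 strain over 9 pairs of libraries. Of 18 matches of a library with another group, 16 were best with its own number, so the numbers pair most of these samples. The fits above did not include the numbers, except where the replicate block is named.

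The members and lists were chosen with earlier results of these data known. All members were named; from each list, up to 2 called genes per direction with the largest change in each comparison; the 3 genes most like each called member with a mean of at least 50; and the targeted and mating type genes. Other list genes were named after their values were seen. Sequences and coordinates are from the R64 reference. A called gene of the lists is counted in them but not reported here.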

Additional observations from a re-analysis of the deposited data

Results flagged for a closer look

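The changes of 10 genes of the lists differed between the strains by limma's test of the difference over all genes, and none of the 10 members did. At 8 h against galactose the difference, Snu114 minus Dib1 on the log2 scale, was -0.55 for BUD3, -0.79 for GIC2, -0.83 for DOC1, -0.98 for CRH1, -1.08 for PCL5, -0.77 for GRR1, -0.56 for BUD4, -0.48 for APC1 and -0.51 for IQG1. For RME1 it was 0.84 at 8 h against 4 h. Each of these calls was lost when replicate 1, or replicate 2, was left out of all 6 groups, and those of BUD3, BUD4, IQG1 and APC1 were also lost with the trend of change with gene length removed. Strain and mating type cannot be told apart in them.

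The ratio of intron to gene reads also changed by different amounts in the strains for most of the 13 hosts, where 81.9% of all introns tested had a lower change in Snu114 cells at 4 h, 57.3% at 8 h, and 55.8% a higher one at 8 h against 4 h. At 8 h against galactose the difference, Snu114 minus Dib1, was -0.98 for UBC9, -1.14 for MOB2, -1.52 for TUB1, -0.91 for TUB3 and -1.54 for PHO85. At 4 h against galactose it was -0.98 for UBC9, -1.95 for KIN28, -2.26 for MCM21, -1.96 for DYN2, -2.30 for GLC7, -3.21 for MOB2, -1.73 for NBL1, -2.60 for MOB1, -1.02 for TUB1, -0.84 for TUB3, -2.15 for RFA2 and -2.96 for PHO85. From 4 h to 8 h it was 1.34 for KIN28, 2.03 for MCM21, 1.36 for DYN2, 1.61 for GLC7, 2.07 for MOB2, 2.19 for NBL1, 1.63 for MOB1, 1.26 for RFA2 and 1.41 for PHO85. For MOB2, which binds a kinase of cell separation, the intron had 13.3, 12.1 and 20.04 reads for every 100 gene reads in Snu114 cells at 8 h, 3.49, 1.94 and 2.64 at 4 h and 4.37, 3.59 and 3.85 in galactose. In Dib1 cells it had 32.8, 29.7 and 33.3 at 8 h, 32.4, 20.4 and 20.6 at 4 h and 4.44, 3.21 and 3.97 in galactose.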

How the results depend on the processing

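The number of members called in Snu114 cells against galactose, 0 in the fits above, was 1 at 8 h and 2 at 4 h with DESeq2 and with the replicate block, and 2 at 4 h with replicate 3 against replicates 1 and 2 as a term, which was chosen after seeing the data because the sample names of replicate 3 have another form. In Dib1 cells DESeq2 called 5 members at 8 h in place of 3, and removal of the length trend left 2 in place of 4 at 8 h against 4 h. For the difference between strains at 8 h against 4 h, DESeq2 and the replicate block each called 1 member, CDC20. Leaving out 1 library gave 0 to 1 members in Snu114 cells at 8 h and 0 to 1 at 4 h, and 1 to 4 in Dib1 cells at 8 h, 0 to 3 at 4 h and 0 to 4 at 8 h against 4 h. The change of SIC1 in Dib1 cells at 4 h ranged from -0.30 without replicate 1 at 4 h to 0.42 without replicate 3 of every group. Of the 13 introns at 4 h in Snu114 cells, 1 was called with the replicate block and 0 to 2 without 1 library. Over all genes the replicate block gave 1112 calls in place of 579 at 8 h and 1497 in place of 739 at 4 h in Snu114 cells. At 8 h against 4 h it gave 385 in place of 123 there, and 1479 in place of 979 at 4 h in Dib1 cells. Deviations of Snu114 libraries with the same number correlated at -0.20 to 0.70. Of 18 matches of a library with another group, 14 in Snu114 cells and 16 in Dib1 cells were best with its own number. The numbers thus paired most but not all libraries of either strain. DESeq2 gave 991, 1246 and 437 in Snu114 cells, and 1489 at 4 h and 1419 at 8 h against 4 h in Dib1 cells. Between strains it gave 699 in place of 405 at 8 h, 158 in place of 32 at 4 h and 261 in place of 40 at 8 h against 4 h, and the block 796, 159 and 236. The term for replicate 3 gave 1121, 1540 and 422 calls in Snu114 cells and 654, 102 and 174 between strains, and removal of the length trend 17 between strains at 8 h against 4 h. In the order 8 h, 4 h and 8 h against 4 h, leaving out 1 library gave 297 to 743, 305 to 1179 and 5 to 141 calls in Snu114 cells and 1210 to 2544, 419 to 1373 and 322 to 1320 in Dib1 cells. Leaving out replicate 3 of every group, chosen after seeing the data, gave 997, 1497 and 241 in Snu114 cells and 1318, 355 and 290 in Dib1 cells. Between strains, leaving out replicate 1, 2 or 3 of every group gave 10 to 360, 2 to 31 and 0 to 74, and leaving out either library that stood apart 441 to 533, 28 to 42 and 17 to 42. The causes were not tested. The block changed no call of a Dib1 member other than CLB2 at 4 h and CLN1 at 8 h.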
